A study of Mus musculus with 14 samples.

Results

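The dystrophin glycoprotein complex genes examined here are 9 genes chosen by name, with earlier results of these data known: Dmd, Utrn, Dag1, Sgca, Sgcb, Sgcd, Sgce, Sspn and Dtna. They are 9 of the 40481 genes in the bulk count table, and all 9 passed the filter on low counts. RNA was measured in the muscularis of C57BL/6 mice, that is, the muscle layers of the gut wall together with their nerve plexus, interstitial cells and vessels. The 4 bulk groups were colon and jejunum from mice with the genotype "Carmn iKO", called KO, and from mice labelled "WT mTmG", called WT, with 3 libraries in each group. Carmn is a gene for a long non-coding RNA, known from smooth muscle, mTmG is a reporter allele that marks cell membranes with fluorescent proteins, and the tags m1, t1, t4, t6 and t7 are the library names. How and in which cells Carmn was deleted, any inducing treatment, the age of the mice, whether KO mice also carried mTmG and whether animals were pooled are not stated in the labels used here. Nuclei of the colon muscularis were profiled in 1 further library per genotype.

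Dystrophin is a long rod-like protein under the muscle cell membrane that links actin to a membrane complex. In that complex dystroglycan binds laminin outside the cell, the sarcoglycans and sarcospan form a subcomplex beside it, and dystrobrevin and the syntrophins bind dystrophin inside the cell and carry signalling proteins. Utrophin is the close relative of dystrophin and can take its place in the complex. In smooth muscle cells the complex sits in membrane bands that alternate with the adhesion plaques.

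Library totals ran from 24254905 to 44315104 counts. KO colon t4 and KO jejunum m1 stood apart on the first 2 principal components (-114 on the first, which held 27.95% of the variance, and -110 on the second, which held 17.35%). Carmn itself was at 304 to 718 CPM (gene counts scaled to library size with TMM factors) in the colon libraries labelled KO and 172 to 352 CPM in WT. In jejunum it was at 817 to 996 CPM in KO and 206 to 326 CPM in WT. The counts thus overlapped in colon, were higher under the KO label in jejunum, and show no loss of Carmn RNA. Which part of the gene was deleted is not stated, so counts of the whole gene cannot decide whether the label holds. KO below means the libraries labelled KO. The summed level of the 10 smooth muscle markers was 34140 to 45130 CPM in KO colon and 50510 to 72680 in WT colon, and in jejunum 44030 to 92530 in KO and 41540 to 45240 in WT, with no marker at 0. Mitochondrially encoded genes took 0.62% to 0.75% of counts in KO colon and 1.55% to 2.28% in WT colon, and 1.17% to 2.07% in KO jejunum and 2.71% to 3.59% in WT jejunum. The part of these differences in the members' values below was not tested. In bulk tissue, fewer cells of a type and less RNA per cell cannot be told apart. The labels do not say that libraries came from separate animals, so p-values measure only the spread between libraries.

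Dmd lies on the plus strand of chromosome X at 82948870 to 85206141 (GRCm38, GENCODE M21), a span of 2257272 bases for 23801 bases of exon. The RefSeq table of promoter windows, which runs from 250 bases before to 50 after a start, held windows for 7 of the 9 members (10 windows). The windows printed here are those the results below turn on. The first Dmd window lies at the start at the 5′ end of the gene, and the second lies at a start far inside the gene that gives a shorter transcript. Sgcb is the 1 member past the threshold between gut segments. The windows are chrX:82948620-82948919 (plus strand), chrX:85048045-85048344 (plus strand) and chr5:73647688-73647987 (minus strand), each written 5′ to 3′ on the gene's strand. Capitals mark a CArG box, the motif bound by serum response factor, a regulator of muscle genes.
Dmd, 5′ start: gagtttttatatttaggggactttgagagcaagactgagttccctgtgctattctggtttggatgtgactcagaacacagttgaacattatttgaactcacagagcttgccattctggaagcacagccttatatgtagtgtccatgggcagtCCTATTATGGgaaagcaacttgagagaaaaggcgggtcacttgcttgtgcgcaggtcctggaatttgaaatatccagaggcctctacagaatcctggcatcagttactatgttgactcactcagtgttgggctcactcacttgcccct
Dmd, inner start: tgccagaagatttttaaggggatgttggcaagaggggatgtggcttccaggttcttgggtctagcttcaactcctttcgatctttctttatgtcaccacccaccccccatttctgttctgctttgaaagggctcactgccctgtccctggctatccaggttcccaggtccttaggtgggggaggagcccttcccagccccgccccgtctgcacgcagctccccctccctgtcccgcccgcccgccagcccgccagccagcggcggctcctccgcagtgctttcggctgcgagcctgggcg
Sgcb: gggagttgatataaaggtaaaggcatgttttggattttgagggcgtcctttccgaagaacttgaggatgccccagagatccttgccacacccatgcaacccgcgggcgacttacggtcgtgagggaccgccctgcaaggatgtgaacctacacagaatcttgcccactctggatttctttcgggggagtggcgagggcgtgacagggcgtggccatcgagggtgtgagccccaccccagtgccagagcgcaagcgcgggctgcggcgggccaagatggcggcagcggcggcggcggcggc

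The CArG box of Dmd begins 98 bases before the start. It was the only match among the 10 member windows, with the motif searched on both strands. Of all 32851 windows of the same length, 535 (1.63%) held a match, and binding at the Dmd match was not measured here. The inner Dmd window and the Sgcb window held none.

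Bulk levels were compared between genes after division by exon length (CPM per kb). The length was the union of all annotated exons of a gene, so the order depends on the annotated transcripts. Sgce was divided by 10.61 kb and Sgca by 1.735 kb. Before this division Sgce was above Sgca in WT colon (43.6 against 11.8 CPM). In WT colon the order was Dag1 (33.6 ± 3.65, SD, n = 3), Utrn (29.3 ± 4.06), Sspn (24.2 ± 2.37), Dmd (16.1 ± 2.19), Sgcb (9.29 ± 1.28), Dtna (9.26 ± 1.75), Sgca (6.81 ± 1.94), Sgcd (6.02 ± 1.1) and Sgce (4.11 ± 0.410). The ranges of mean ± SD overlapped for Dag1 and Utrn, Utrn and Sspn, Sgcb and Dtna, Dtna and Sgca, and Sgca and Sgcd. In WT jejunum Dag1 had the highest mean with 38.4 ± 4.82 CPM per kb, followed by Sspn (30.1 ± 6.70), Sgcb (19.6 ± 1.05), Utrn (17.9 ± 1.38), Dmd (16.5 ± 1.94), Sgcd (9.88 ± 0.313), Dtna (8.96 ± 0.414), Sgca (7.01 ± 0.823) and Sgce (5.08 ± 0.690). The steps from Dag1 to Sspn, from Sgcb to Utrn and from Utrn to Dmd there were within the spread, and Sspn was above Dag1 in t6 (37.8 against 35.55 CPM per kb). Dag1 also ranked first and Utrn second per kb in both KO groups, and Sgca and Sgce were the lowest pair there on this scale. Exons of Sspn overlap those of Sspnos and exons of Dtna overlap those of Gm47898, so the counts of these 2 members could hold reads of the overlapping gene.

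**Figure D1:**
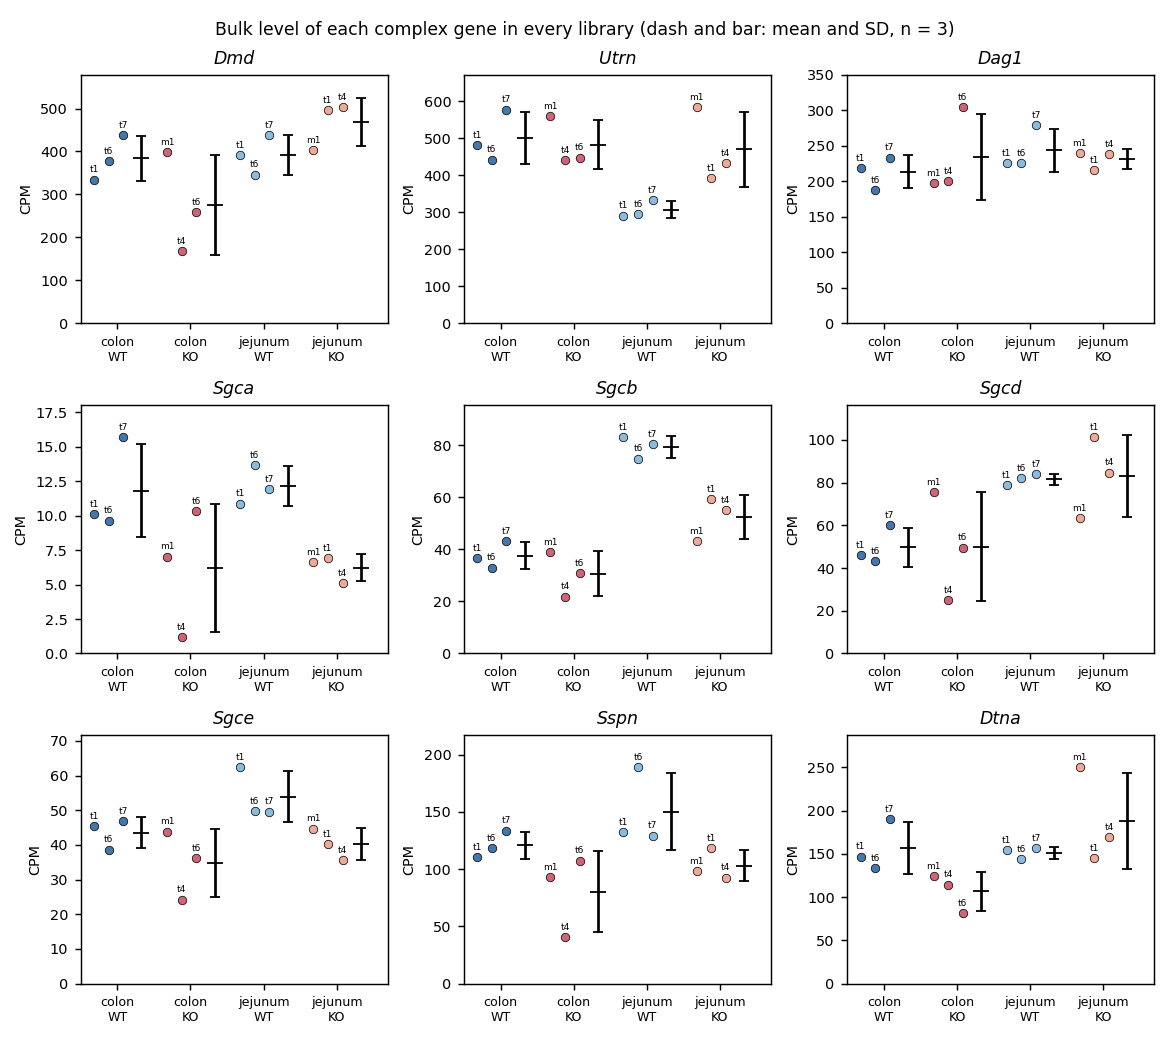
Level of each of the 9 genes (y axis, CPM, starting at 0) in the 12 bulk libraries, with 1 point per library and its tag, and the mean and SD of each group of 3 beside the points. KO colon t4 is the lowest KO colon library for 7 of the 9 genes, Sgcb is higher in WT jejunum than in every other group, and Utrn is lower in WT jejunum than in every other group.

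The comparison of KO with WT asks whether the complex's RNA differed with the Carmn genotype. No member passed the threshold in either tissue. In colon 7 of the 9 members were lower and 2 higher in KO, and their median log2 fold change was -0.33 against 0.00426 over all 20886 genes tested. The test called 0 of 9 members (edgeR, adjusted p below 0.05), beside 0.388% of all genes called. The counts by DESeq2 and limma voom were also 0, and 1 member had an unadjusted p below 0.05, beside 14.5% of all genes. In jejunum 5 members were lower and 4 higher, with a median of -0.07 against 0.02 over all genes. There too 0 of 9 were called, beside 0.215% of all genes, with 0 by DESeq2 and voom and 2 at an unadjusted p below 0.05, beside 13.2% of all genes.

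KO colon t4 weighs on the colon values: it was the lowest of the 3 KO colon libraries for 7 of the 9 members. Its summed fibroblast markers (9 genes) stood at 13820 CPM and its macrophage markers (9 genes) at 2000 CPM, against 3012 to 3804 and 479 to 642 CPM in the other KO colon libraries. Without it the colon median was -0.12, and no member was called.

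Dmd, dystrophin itself, was at 399 (m1), 168 (t4) and 260 (t6) CPM in KO colon and at 335 (t1), 378 (t6) and 438 (t7) CPM in WT colon. The highest KO library lay inside the WT range and the other 2 below it. The log2 fold change was -0.48 (standard error 0.27, edgeR adjusted p = 0.461), and -0.22 without KO colon t4. In jejunum Dmd was at 404 (m1), 496 (t1) and 504 (t4) CPM in KO and 391 (t1), 346 (t6) and 439 (t7) CPM in WT. These groups overlapped through KO jejunum m1, and the log2 fold change was 0.26 (standard error 0.27, edgeR adjusted p = 0.730). The colon value minus the jejunum value was -0.73 (standard error 0.39, adjusted p = 0.941), so the opposite signs are not shown to differ.

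Utrn, utrophin (chromosome 10, minus strand, 12382188 to 12869365), was at 560 (m1), 441 (t4) and 448 (t6) CPM in KO colon and 481 (t1), 443 (t6) and 577 (t7) CPM in WT colon. The 2 ranges nearly coincided, and the log2 fold change was -0.05 (standard error 0.20, edgeR adjusted p = 0.946). In jejunum Utrn was at 585 (m1), 392 (t1) and 433 (t4) CPM in KO and 291 (t1), 295 (t6) and 334 (t7) CPM in WT. All 3 KO jejunum libraries lay above all 3 WT libraries. The 8 endothelial markers summed to 291 to 530.5 CPM in KO jejunum and 123.5 to 276 in WT jejunum, and the 9 macrophage markers to 939.5 to 2418 and 230 to 791 CPM. Their part in the Utrn values was not tested. The log2 fold change was 0.61 (standard error 0.20) and missed the threshold (edgeR adjusted p = 0.225, range over 9 alternative settings 0.0642 to 0.366). Without KO jejunum m1, the highest library, it was 0.40 (adjusted p = 0.536). The difference between the tissues was -0.67 (standard error 0.29, adjusted p = 0.941, unadjusted p = 0.0387).

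Dag1 (chromosome 9, minus strand, 108204634 to 108263958) encodes dystroglycan, the laminin receptor of the complex. It was at 198 (m1), 201 (t4) and 305 (t6) CPM in KO colon and 219 (t1), 188 (t6) and 233 (t7) CPM in WT colon, with a log2 fold change of 0.14 (standard error 0.20, edgeR adjusted p = 0.818). In jejunum it was at 240 (m1), 216 (t1) and 238 (t4) CPM in KO and 226 (t1), 226 (t6) and 279 (t7) CPM in WT, with a log2 fold change of -0.07 (standard error 0.20, adjusted p = 0.909). The ranges overlapped in both tissues. Dag1 had the smallest spread of the 9 genes between groups, with group means of 213 to 244 CPM.

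The sarcoglycans are membrane proteins that assemble into the subcomplex beside dystroglycan. Sgca (chromosome 11, minus strand, 94962791 to 94976327) encodes alpha-sarcoglycan, known mostly from striated muscle. It was at 7.03 (m1), 1.18 (t4) and 10.3 (t6) CPM in KO colon and 10.1 (t1), 9.65 (t6) and 15.7 (t7) CPM in WT colon. KO colon t4 held 34 counts of Sgca, against 324 and 408 in the other KO colon libraries. The colon log2 fold change was -0.93 (standard error 0.54, edgeR adjusted p = 0.474), and -0.44 without KO colon t4. In jejunum Sgca was at 6.65 (m1), 6.92 (t1) and 5.09 (t4) CPM in KO and 10.9 (t1), 13.7 (t6) and 11.9 (t7) CPM in WT. All KO jejunum libraries lay below all WT libraries, with a log2 fold change of -0.97 (standard error 0.55, adjusted p = 0.476, range over 9 alternative settings 0.124 to 0.601). The 9 skeletal muscle markers summed to 43.6 to 97.6 CPM in KO jejunum and 118 to 133 in WT jejunum. In colon the sums were 25.9 to 38.2 CPM in KO and 82.5 to 125 in WT. Ckm alone was at 38.0 to 79.0 CPM in KO jejunum and 111 to 124 in WT jejunum, most of each sum. Acta1, another of these markers, was at 0.543 to 7.665 CPM in KO jejunum and 1.625 to 2.71 in WT jejunum. The part of these markers in the Sgca values was not tested.

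Sgce, epsilon-sarcoglycan (chromosome 6, minus strand, 4674350 to 4747207), is the broadly expressed relative of Sgca. It was at 43.8 (m1), 24.3 (t4) and 36.2 (t6) CPM in KO colon and 45.3 (t1), 38.6 (t6) and 46.8 (t7) CPM in WT colon, which overlap. In jejunum it was at 44.7 (m1), 40.2 (t1) and 35.5 (t4) CPM in KO and 62.4 (t1), 49.7 (t6) and 49.6 (t7) CPM in WT, and the groups did not overlap. The log2 fold changes were -0.33 (standard error 0.21, edgeR adjusted p = 0.514) in colon and -0.43 (standard error 0.21, adjusted p = 0.412) in jejunum. Neither passed the threshold, the colon value was -0.12 without KO colon t4, and they differed by 0.10 (standard error 0.30, adjusted p = 0.972).

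Sgcb, beta-sarcoglycan (chromosome 5, minus strand, 73632749 to 73647790), is a core subunit of the subcomplex. It was at 39.1 (m1), 21.8 (t4) and 30.8 (t6) CPM in KO colon and 36.8 (t1), 32.97 (t6) and 43.2 (t7) CPM in WT colon, with overlap and a log2 fold change of -0.30 (standard error 0.21, edgeR adjusted p = 0.558), or -0.11 without KO colon t4. In jejunum it was at 43.2 (m1), 59.5 (t1) and 55.2 (t4) CPM in KO and 83.1 (t1), 74.9 (t6) and 80.6 (t7) CPM in WT. The highest KO jejunum library lay well below the lowest WT library. The log2 fold change was -0.60 (standard error 0.21) and missed the threshold (adjusted p = 0.261, unadjusted p = 0.0158).

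Sgcd, delta-sarcoglycan (chromosome 11, minus strand, 46896253 to 47988969), binds Sgcb in the core. It showed the widest spread among KO colon libraries after Sgca, at 75.7 (m1), 25.0 (t4) and 49.6 (t6) CPM, around WT values of 46.0 (t1), 43.1 (t6) and 60.1 (t7) CPM. In jejunum the values were 63.4 (m1), 101 (t1) and 84.8 (t4) CPM in KO and 78.9 (t1), 82.0 (t6) and 84.0 (t7) CPM in WT. The log2 fold changes were 0.01 (standard error 0.32, edgeR adjusted p = 0.993) in colon and 0.03 (standard error 0.32, adjusted p = 0.984) in jejunum, and without KO colon t4 the colon value was 0.34.

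Sspn encodes sarcospan, a small membrane protein that joins the sarcoglycans (chromosome 6, plus strand, 145931641 to 145965223). It was at 92.8 (m1), 40.4 (t4) and 107 (t6) CPM in KO colon and 110 (t1), 119 (t6) and 134 (t7) CPM in WT colon. In jejunum it was at 98.2 (m1), 118 (t1) and 92.6 (t4) CPM in KO and 133 (t1), 189 (t6) and 129 (t7) CPM in WT. In both tissues every KO library was lower than every WT library, by narrow gaps. The log2 fold changes were -0.59 (standard error 0.30, edgeR adjusted p = 0.400) in colon and -0.54 (standard error 0.30, adjusted p = 0.472) in jejunum, and without KO colon t4 the colon value was -0.27.

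Dtna, alpha-dystrobrevin, is a dystrophin relative that binds it and the syntrophins. It was at 124 (m1), 115 (t4) and 81.2 (t6) CPM in KO colon and 147 (t1), 134 (t6) and 190 (t7) CPM in WT colon. All KO colon libraries lay below all WT colon libraries. The log2 fold change was -0.56 (standard error 0.23, edgeR adjusted p = 0.308, unadjusted p = 0.0361), and -0.61 without KO colon t4. In jejunum Dtna was at 250 (m1), 145 (t1) and 169 (t4) CPM in KO and 154 (t1), 144 (t6) and 157 (t7) CPM in WT, a log2 fold change of 0.31 (standard error 0.23, adjusted p = 0.604) that was 0.03 without KO jejunum m1. The colon value minus the jejunum value was -0.87 (standard error 0.33, adjusted p = 0.941, unadjusted p = 0.0231).

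Counted over the 9 genes, 2 had no overlap of KO and WT libraries in colon (Sspn and Dtna, both lower), where 19.2% of all genes did not overlap. In jejunum the count was 5, with Utrn higher and Sgca, Sgcb, Sgce and Sspn lower, where 22.2% of all genes did not overlap. The 8 pericyte or vascular mural markers summed to 2590 to 3858 CPM in KO jejunum and 4394 to 5826 CPM in WT jejunum. The mitochondrial share was also lower in all 3 KO jejunum libraries, and the part of both in these counts was not tested. The direct test of the difference between the 2 tissues called 0 of 9 members, beside 0% of all genes (0 by DESeq2 and voom, and 2 members, Utrn and Dtna, at an unadjusted p below 0.05, beside 4.16% of all genes). Its median over the members was -0.02, and without KO colon t4 it was 0.30.

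**Figure D2:**
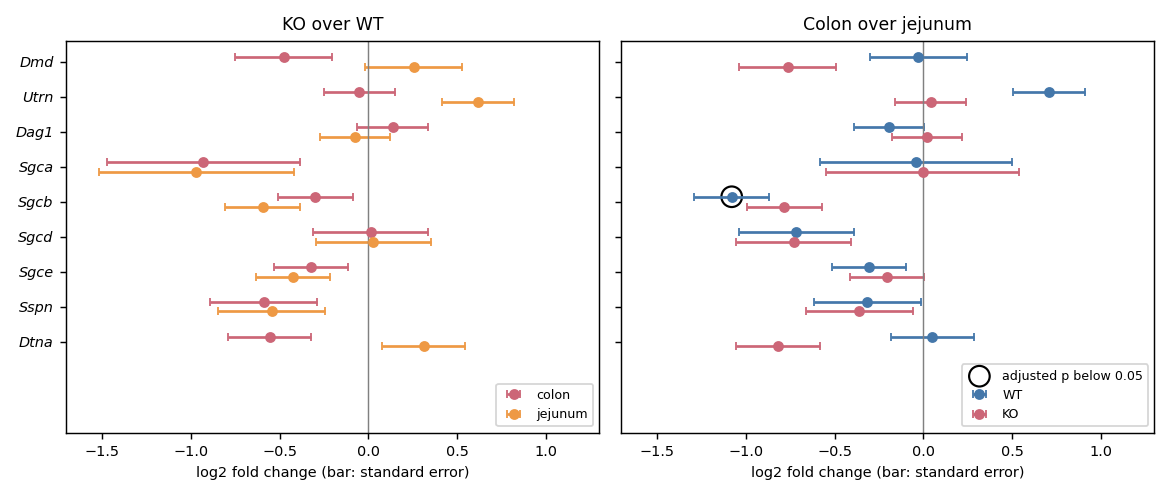
Log2 fold change (x axis, bars are standard errors) of each gene (y axis) for KO over WT in colon and jejunum (left) and for colon over jejunum in WT and KO (right). The circle marks the only value past the threshold, Sgcb at -1.08 in WT.

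Between the gut segments the clearest member was Sgcb. In WT it was at 32.97 to 43.2 CPM in colon and 74.9 to 83.1 CPM in jejunum, a 2.11-fold lower level in colon (log2 fold change -1.08, standard error 0.21, edgeR adjusted p = 0.0306). It was the 1 member called of 9, beside 1.56% of all genes called. DESeq2 called 2 (Sgcb and Utrn) and voom 1, and 3 had an unadjusted p below 0.05, beside 13.1% of all genes. Shares of all genes are those of edgeR throughout, and those of DESeq2 and voom are not given here. The call on Sgcb was lost with the libraries scaled by total counts (adjusted p = 0.0905) and without any 1 of WT colon t1, WT colon t6, WT jejunum t1, WT jejunum t6 or WT jejunum t7 (adjusted p = 0.0723 to 0.115), while the log2 fold change stayed between -1.25 and -1.05 over all single libraries left out. Within KO, Sgcb was 1.72-fold lower in colon (log2 fold change -0.78, standard error 0.21, adjusted p = 0.0942). It was below the threshold there by DESeq2 (0.0170).

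Utrn went the other way in WT. It was at 443 to 577 CPM in colon and 291 to 334 CPM in jejunum, with no overlap, a log2 fold change of 0.71 (standard error 0.20, edgeR adjusted p = 0.130, 0.0229 by DESeq2). In KO the ranges of the segments overlapped, and the log2 fold change was 0.04 (standard error 0.20, adjusted p = 0.941). Sgcd was lower in colon in WT, at 43.1 to 60.1 against 78.9 to 84.0 CPM without overlap, a log2 fold change of -0.72 (standard error 0.32, adjusted p = 0.373), and in KO it was -0.73 (standard error 0.32, adjusted p = 0.267) with overlap, or -0.41 without KO colon t4. Leaving out KO colon t4 and KO jejunum m1 together was chosen after the values were seen. Then 3 members were called in WT by edgeR: Sgcb, Utrn (0.65, adjusted p = 0.0430) and Sgcd (-0.77, adjusted p = 0.0406). The WT libraries were the same, and the standard error of Sgcd was 0.18 in place of 0.32. The share of all genes called in that fit is not given here, so the count is not read as a result about the members.

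Dmd and Dtna had values that did not overlap between the segments in KO and that overlapped in WT. Dmd in KO was at 168 to 399 CPM in colon and 404 to 504 CPM in jejunum, a log2 fold change of -0.76 (standard error 0.27, edgeR adjusted p = 0.184) that was -0.51 without KO colon t4, and in WT it was -0.03 (standard error 0.27, adjusted p = 0.987). Dtna in KO was at 81.2 to 124 CPM in colon and 145 to 250 CPM in jejunum, a log2 fold change of -0.82 (standard error 0.24, adjusted p = 0.109, 0.0283 by DESeq2), and in WT it was 0.05 (standard error 0.23, adjusted p = 0.976). The tests of these differences are the 2 differences between tissues given above, which missed the threshold. Among KO libraries 0 of 9 members were called, beside 1.29% of all genes, with 2 by DESeq2 (Sgcb and Dtna), 0 by voom and 4 at an unadjusted p below 0.05, beside 17.7% of all genes.

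The remaining members had smaller differences between segments. In WT the log2 fold changes of colon over jejunum were -0.04 for Sgca, -0.31 for Sgce, -0.19 for Dag1 and -0.32 for Sspn, and in KO they were -0.00453, -0.21, 0.02 and -0.36, with edgeR adjusted p from 0.559 to 0.998. Without KO colon t4 the KO values were 0.48 for Sgca, -0.004378 for Sgce, 0.12 for Dag1 and -0.04244 for Sspn. Colon and jejunum values did not overlap for 4 of 9 members in WT (Utrn higher, Sgcb, Sgcd and Sgce lower), beside 22.9% of all genes, and for 3 of 9 in KO (Dmd, Sgcb and Dtna, all lower), beside 19.6% of all genes. The members' median was -0.19 in WT and -0.36 in KO, against 0.04 and 0.03 over all genes. The 8 pericyte or vascular mural markers summed to 1422 to 2074 CPM in WT colon and 4394 to 5826 CPM in WT jejunum, and the part of vessel content in these values was not tested.

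The balance of dystrophin and utrophin was taken as the ratio of their CPM per kb in each library, a quantity chosen after the values were seen. It was 0.4996 (t1), 0.615 (t6) and 0.546 (t7) in WT colon and 0.964 (t1), 0.842 (t6) and 0.944 (t7) in WT jejunum. On this scale Dmd was below Utrn in each WT colon library and closer to Utrn in each WT jejunum library. The scale rests on annotated exon lengths of 23.8 kb for Dmd and 17.11 kb for Utrn. In CPM the means were 384 for Dmd and 500 for Utrn in WT colon, and 392 and 307 in WT jejunum. Dmd counts also join transcripts from both starts, so the ratio is compared between groups and not read as relative amounts. In KO the ratio was 0.511 (m1), 0.274 (t4) and 0.417 (t6) in colon and 0.496 (m1), 0.912 (t1) and 0.835 (t4) in jejunum. KO jejunum m1 lay within the range of the colon libraries. The group means were 0.553 ± 0.0579 in WT colon, 0.401 ± 0.119 in KO colon, 0.917 ± 0.0654 in WT jejunum and 0.748 ± 0.221 in KO jejunum (SD, n = 3 each). Two-sided exact permutation tests gave p = 0.1 for the segments in WT, the smallest that 3 against 3 libraries allow, and p = 0.2 for the segments in KO and for KO against WT in each tissue. Adjusted over the 4 comparisons, each exact p was 0.2.

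**Figure D3:**
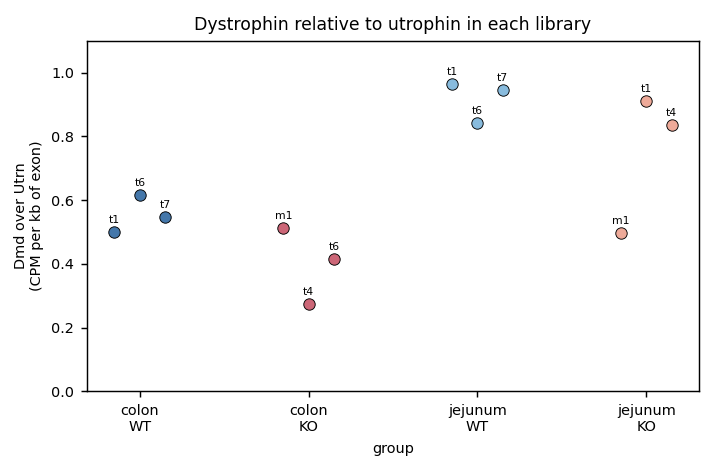
Ratio of Dmd to Utrn in CPM per kb of exon (y axis, starting at 0) in each of the 12 bulk libraries, by group, with library tags. The WT jejunum libraries lie at 0.842 to 0.964 and the WT colon libraries at 0.4996 to 0.615, while KO jejunum m1 (0.496) lies apart from t1 and t4.

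The members did not vary as 1 unit across libraries. After group means were removed, Pearson's r over the 12 libraries was 0.97 for Sgcb and Sgcd, 0.93 for Dmd and Sgcd, 0.91 for Dmd and Sgcb, 0.94 for Sgca and Sspn, and 0.87 for Utrn and Dtna. Dmd and Dag1 had 0.08, and Dmd and Utrn 0.33. These are descriptions over libraries that share groups, scaling and 1 library (KO colon t4) low in most members. The genes whose log2 CPM followed Dmd most closely over the 12 libraries, among 11145 genes compared, were Tmem252 (r = 0.91), Ube2d-ps (0.90), Ehbp1 (0.90), Palmd (0.89) and Ryr2 (0.88). For Utrn, Tulp4 (0.94), Filip1 (0.93), Parva (0.93) and Mustn1 (0.92) were among them.

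The other genes of the pathway were taken from 4 lists with 52 genes, all of which were tested. In KO against WT, 0 of the 52 passed the edgeR threshold in either direction in either tissue. At an unadjusted p below 0.05 there were 2 of 13 other subunits and cytoplasmic partners, 1 of 18 glycosylation enzymes, 1 of 13 ligands and 3 of 8 integrins or linkers in colon, and 2, 2, 5 and 2 in jejunum, beside 14.5% and 13.2% of all genes. DESeq2 called 1, 1, 0 and 0 of these lists in colon and 1, 0, 2 and 1 in jejunum, and voom called 0 in colon and 1 subunit in jejunum. Of the 13 other subunits and cytoplasmic partners, 3 were higher and 10 lower in colon and 4 higher and 9 lower in jejunum. Cav3, the muscle caveolin, had log2 fold changes of -1.32 in colon (standard error 0.39, edgeR adjusted p = 0.160, 0.0336 by DESeq2) and -0.79 in jejunum (standard error 0.38, adjusted p = 0.398), without overlap in either tissue.

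Of the 18 enzymes that build the laminin-binding sugar of dystroglycan, 10 were higher and 8 lower in KO colon, and 6 higher and 12 lower in KO jejunum. Dpm1, a subunit of the enzyme that makes the mannose donor, had a log2 fold change of 0.68 in colon (edgeR adjusted p = 0.375), and B4gat1, which primes the sugar's outer chain, had -0.62 in jejunum (adjusted p = 0.266). Of the 13 extracellular ligands, 11 were higher and 2 lower in colon, and 8 higher and 5 lower in jejunum. Bgn, biglycan, a matrix proteoglycan known to bind the complex, had log2 fold changes of 1.44 (standard error 0.48, adjusted p = 0.209) in colon and 2.02 (standard error 0.49, adjusted p = 0.123) in jejunum, again without overlap. Hspg2, perlecan, followed in colon (0.53, adjusted p = 0.391) and Slit2, a guidance ligand of dystroglycan, in jejunum (-0.87, adjusted p = 0.178). In the colon nuclei below, Bgn was highest in fibroblast-like nuclei (208.5 CPM, against 27.5 CPM in smooth muscle-like nuclei). The fibroblast markers summed to 3012 to 13820 CPM in KO colon and 4218 to 7217 in WT colon. In jejunum the sums were 3303 to 8131 CPM in KO and 3482 to 4163 in WT. The part of fibroblast content in the Bgn values was not tested.

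The 8 laminin-binding integrin genes and their linkers, which form the other laminin attachment of the smooth muscle membrane, were 3 higher and 5 lower in KO colon and 5 higher and 3 lower in KO jejunum. The smallest p values belonged to Vcl (-0.79, edgeR adjusted p = 0.214) and Itga7 (-0.72, adjusted p = 0.232) in colon, and to Ilk (1.52, adjusted p = 0.146) and Itgb1 (0.82, adjusted p = 0.264) in jejunum. Of the 52 partners, 3 passed the edgeR threshold between segments. In WT it was 1 ligand, beside 1.56% of all genes called. In KO it was 1 subunit or cytoplasmic partner higher and 1 lower, beside 1.29% of all genes. Slit2 was lower in colon than in jejunum in WT (log2 fold change -1.60, adjusted p = 0.0125). In KO, Cav3 was lower (-2.10, adjusted p = 0.0303) and Nos1, the neuronal nitric oxide synthase that syntrophin anchors in muscle, was higher in colon (1.61, adjusted p = 0.0316). In the nuclei Nos1 was found mainly in enteric neuron-like nuclei (1312 CPM, against 3.18 CPM in smooth muscle-like nuclei).

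In the colon nuclei, 2632 WT and 1592 KO nuclei were kept, 11 barcodes occurred in both libraries, and nuclei were put into 11 named classes after clustering without the 9 members and their 52 partners. The 172 nuclei of clusters 13 and 17 stayed unnamed. Values are UMIs (unique molecular identifiers) of a gene over all UMIs of a class, scaled as CPM, with exact Poisson 95% intervals that cover counting error only. Nuclear RNA holds introns, so a long gene such as Dmd gives many UMIs and levels are compared between classes and not between genes. Smooth muscle-like nuclei came from clusters 0, 1, 2, 7 and 18, which carried 8 to 10 of the 10 smooth muscle markers. No cluster of its own was found for vascular mural cells, and 3 or 4 of their 8 markers were raised in each smooth muscle-like cluster.

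Dmd was highest in smooth muscle-like nuclei, at 14340 CPM (14180 to 14500) in the WT library and 11930 CPM (11760 to 12110) in the KO library. Enteric glia-like nuclei came second with 4237 CPM (4126 to 4350) in WT and 3768 CPM (3614 to 3926) in KO. Over both libraries the order went on with enteric neuron-like (2390), macrophage-like (2168), B lymphocyte-like (1841) and T lymphocyte-like nuclei (1550), and the remaining 5 classes lay between 812 and 1123 CPM. Lymphocytes are not known for dystrophin. In WT, T lymphocyte-like nuclei held 3547 CPM (2754 to 4496) from 68 UMIs over 13 nuclei. In KO they held 718 CPM (494 to 1008) from 33 UMIs over 40 nuclei. Levels in that range are not read as expression, since free RNA in the droplets was not measured and doublets remain. The intervals leave out the spread between nuclei, so the gap between these T lymphocyte-like levels is not read as a difference between genotypes. Over both libraries Dmd UMIs were found in 21.57% of B lymphocyte-like, 16.98% of T lymphocyte-like and 20.42% of macrophage-like nuclei. The percent was 97.86 in smooth muscle-like, 95.35 in enteric glia-like and 80.58 in enteric neuron-like nuclei. The source of the UMIs outside smooth muscle-like nuclei was not tested. The median UMI count was 992 in B lymphocyte-like, 822 in T lymphocyte-like and 2038 in smooth muscle-like nuclei. It was 2045 in enteric glia-like and 6894.5 in enteric neuron-like nuclei. The level in smooth muscle-like nuclei was above every other class in each library.

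Utrn had a different order. Endothelial-like nuclei were highest, at 4608 CPM (3988 to 5296, 24 nuclei) in WT and 1721 CPM (1478 to 1993, 36 nuclei) in KO, followed by interstitial cell of Cajal-like nuclei at 1943 CPM (1683 to 2232) and 1572 CPM (1324 to 1853). The KO intervals of these 2 classes overlap. Smooth muscle-like nuclei had rank 9 of the 11 classes in WT, below fibroblast-like nuclei (670 CPM), and rank 5 in KO, above fibroblast-like nuclei (786 CPM). Utrn UMIs were found in all 11 classes, with B lymphocyte-like nuclei lowest (245 CPM, 140 to 399).

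The sarcoglycans divided by class. Sgca had 61 UMIs in smooth muscle-like nuclei, a level of 16.15 CPM (12.4 to 20.75), and the next class, epithelial-like, had 2 UMIs and 2.11 CPM (0.255 to 7.61). No Sgca UMI was found in 7 classes. In mesothelial-like nuclei, the largest of those 7 by UMIs, a count of 0 has an upper limit of 2.58 CPM (2.10 CPM at 3 counts). Sgcd was high in enteric neuron-like (1746 CPM, 1688 to 1805), smooth muscle-like (1571, 1531 to 1611) and enteric glia-like nuclei (1037, 992 to 1084). The first 2 of these changed places between libraries, with 1968 CPM in neuron-like and 1346 in smooth muscle-like nuclei of WT and 1434 and 1918 CPM in KO. Sgce was spread more evenly, led by enteric glia-like (207 CPM, 187 to 229), fibroblast-like (158.5, 130 to 191) and smooth muscle-like nuclei (156, 144 to 169). Sgcb was sparse everywhere, at most 25.9 CPM (18.2 to 35.6) in mesothelial-like nuclei and 14.3 CPM (10.7 to 18.7) in smooth muscle-like nuclei.

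Dag1 was highest in mesothelial-like nuclei, at 214 CPM (178 to 255) in WT and 403 CPM (362 to 448) in KO, and at 66.2 CPM (58.3 to 74.9) over both libraries in smooth muscle-like nuclei. Sspn was also highest in mesothelial-like nuclei (38.4 CPM, 28.95 to 50.03), from 55 UMIs. Dtna was highest in enteric glia-like nuclei, at 1959 CPM (1884 to 2037) in WT and 1657 CPM (1556 to 1763) in KO, with smooth muscle-like nuclei second at 844 and 772 CPM. Smooth muscle-like nuclei were the highest class for Dmd and Sgca in each library, and for Sgcd in KO.

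**Figure D4:**
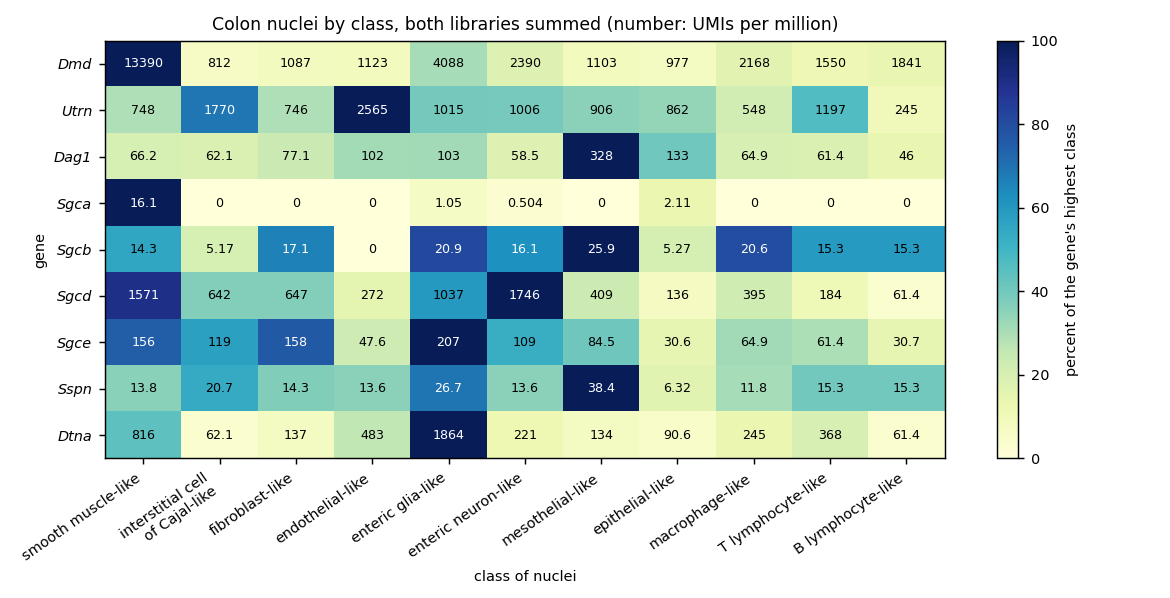
Level of each gene (rows) in the 11 named classes of colon nuclei (columns), both libraries summed, with the number in each cell giving CPM and the colour the percent of that gene's highest class. Dmd and Sgca peak in smooth muscle-like nuclei, Utrn in endothelial-like, Dag1, Sgcb and Sspn in mesothelial-like, Sgcd in enteric neuron-like, and Sgce and Dtna in enteric glia-like nuclei.

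The genes whose log2(CPM + 1) followed Dmd most closely over the 11 classes, among 7790 genes compared, were Slc7a8 (r = 0.85), Colec10 (0.85), Kbtbd12 (0.85), Enah (0.84) and Pcp4 (0.82). Among the partners, the smooth muscle-like nuclei were the highest class for 5 of the 8 integrin and linker genes (Ilk, Itga7, Itgb1, Tln1 and Vcl), for 3 of the 13 other subunits (among them Sntg2 at 2498 CPM and Cav3 at 7.68), for 2 of the 13 ligands (Hspg2 and Lama4) and for 1 of the 18 enzymes. Fibroblast-like nuclei were the highest class for 6 ligands, among them the laminin chain Lama2 with 1988 CPM.

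Within smooth muscle-like nuclei the 2 libraries were set side by side without a test, since each genotype had 1 library. Utrn was at 553 CPM (523 to 584) in WT and 1048 CPM (997 to 1102) in KO, a ratio of 1.90 (log2 ratio 0.92, 95% interval 0.81 to 1.03). Sgce was at 192.5 CPM (175 to 211) in WT and 100.3 CPM (84.9 to 118) in KO, a 1.92-fold lower level (log2 ratio -0.94, -1.22 to -0.67). Sgcd was at 1346 CPM (1299 to 1394) and 1918 CPM (1848 to 1989), a log2 ratio of 0.51 (0.44 to 0.59). Dmd had a log2 ratio of -0.26 (-0.29 to -0.24), Dtna -0.13 (-0.24 to -0.02) and Dag1 0.04 (-0.34 to 0.42). Sgca, Sgcb and Sspn had 61, 54 and 52 UMIs in this class, and their intervals included 0. Of the 6 members with at least 100 UMIs, 2 (Utrn and Sgce) differed by more than 1.5-fold, where 20.4% of the 5170 genes with as many UMIs did.

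The libraries fill the class from different clusters: the largest share of WT nuclei of the class was in cluster 7 (345 of 881) and the largest share of KO nuclei in cluster 1 (150 of 427), while cluster 0 held 128 WT and 5 KO nuclei. Set side by side within a cluster, the log2 ratio of Utrn was 1.17 (0.91 to 1.44) in cluster 1, 0.69 (0.41 to 0.97) in cluster 2, 0.44 (0.21 to 0.65) in cluster 7 and 1.39 (1.01 to 1.77) in cluster 18. Sgce was lower in KO in each of these 4 clusters, from -1.46 to -0.50, with the interval including 0 in cluster 2. Sgcd was at 1.03 (0.85 to 1.225) in cluster 1 and 0.13 (-0.08 to 0.35) in cluster 2. It was at 0.43 (0.28 to 0.58) in cluster 7 and 0.67 (0.45 to 0.88) in cluster 18. Dmd changed sign, at -0.20 in cluster 1 and -0.14 in cluster 2 against 0.08 in clusters 7 and 18, and so did Dtna, at 0.30 in cluster 1 against -0.75 in cluster 2 and -0.52 in cluster 7. In cluster 0, with its 5 KO nuclei, Sgce was at 0.66 (-1.002 to 1.94), Utrn at 0.53 (-0.45 to 1.36) and Sgcd at -0.24 (-0.94 to 0.38). Over 6 alternative settings (thinned nuclei, a higher UMI minimum, coarser or finer clustering, members among the clustering genes, doublet calls kept), the log2 ratio in the class was 0.44 to 0.98 for Utrn, 0.41 to 0.59 for Sgcd and -1.13 to -0.60 for Sgce. It was -0.33 to 0.06 for Dmd, -0.59 to -0.03 for Dtna and -0.007438 to 0.51 for Dag1. The class was smaller than 881 WT and 427 KO nuclei wherever nuclei were clustered anew. It held 625 and 139 with coarser and 718 and 254 with finer clustering. With members among the clustering genes it held 638 and 299, with doublet calls kept 678 and 301, and with the higher UMI minimum 743 and 368. In bulk colon, which holds all cell types, Utrn had a log2 fold change of -0.05 and Sgce of -0.33. The median UMI count of smooth muscle-like nuclei was 1892 in WT and 2333 in KO.

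**Figure D5:**
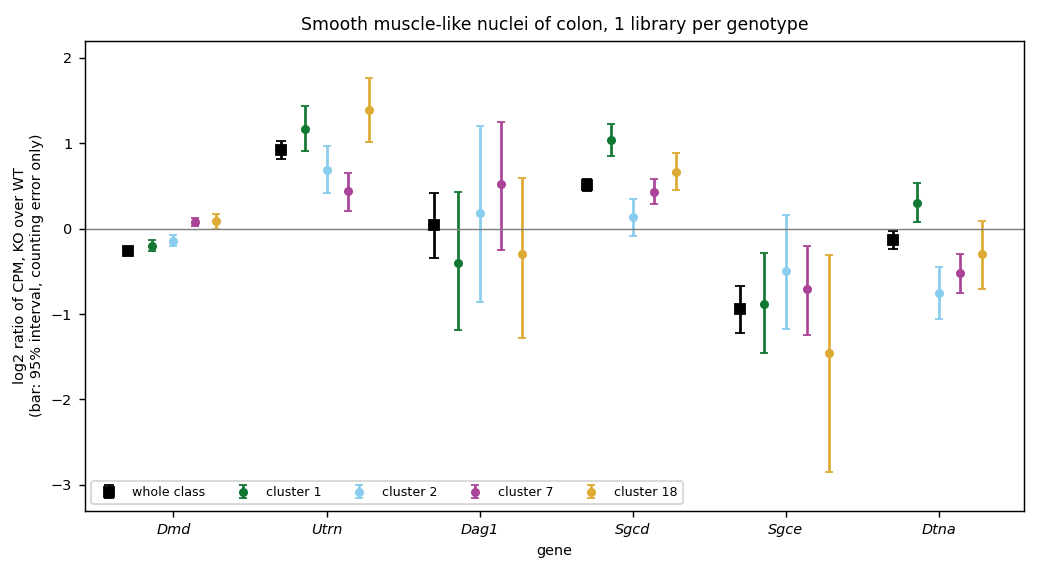
Log2 ratio of CPM, KO over WT (y axis), in smooth muscle-like colon nuclei for the 6 genes with at least 100 UMIs (x axis), for the whole class (squares) and within 4 of its clusters (circles), with 95% intervals for counting error only. Utrn lies above 0 and Sgce below 0 in the whole class and in all 4 clusters, while Dmd and Dtna lie on both sides of 0.

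The nuclei files also list open chromatin regions, called separately in each library. The WT list held 35003 regions from 3476 barcodes and the KO list 26493 regions from 2164 barcodes. Within 1000 bases of an annotated start, the WT library had at least 1 region for 8 of the 9 members and the KO library for 5. Sgca had none in either. The share over all genes is not given here, so 8 and 5 are not read as a difference between genotypes. For Dmd the WT list had a region at the inner start, chrX:85047979-85048992, which covers the inner window printed above, and none at the 5′ start. The KO list had a region at the 5′ start, chrX:82948365-82949313, which covers the window with the CArG box, and none at the inner start. These regions held 12 counts in WT and 20 counts in KO smooth muscle-like nuclei (16.7 and 49.75 CPM of all region counts). Counts exist only for listed regions, so the lists do not show a difference in accessibility. Sgcb had a region at its start in both lists, with 35 counts in WT and 24 in KO smooth muscle-like nuclei (48.7 and 59.7 CPM).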

How the data were processed

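Bulk RNA-seq was deposited as 1 table of raw counts per Ensembl gene, and the nuclei as raw counts per gene and open region. Per the submitters' processing notes, STAR 2.0.4b, Subread, featureCounts 1.4.5, edgeR and Cell Ranger were used with the builds GRCm38 and mm10; the nuclei counts came from cellranger-arc 2.0.0, per the file headers. Strand setting and annotation of the counting were not given in the sources used here; reads of overlapping genes cannot be told apart. Of the 40757 rows of the bulk table, 276 with a repeated identifier were dropped, and 0 columns lacked a sample.

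The 12 bulk libraries were fitted together with group means in edgeR 4.0.16 (TMM, filterByExpr, quasi-likelihood test, Benjamini-Hochberg adjustment over 20886 genes, threshold 0.05). DESeq2 1.42.0 and limma 3.58.1 voom were alternatives, and the fit was tested on simulated data. Exon lengths and positions came from GENCODE M21 and promoter windows from RefSeq (GRCm38.p6). R 4.3.3, Python 3.11.15 and scipy 1.17.1 were used.

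All gene values of the deposited nuclei counts were even and were halved. Nuclei with at least 500 UMIs, at least 300 genes and at most 5% mitochondrial UMIs were kept. The doublet caller marked 7 WT and 2 KO nuclei, too few for it to have worked, so doublets remain. Nuclei were clustered with scanpy 1.11.5 (2000 variable genes without members and partners, 30 principal components, 15 neighbours, Leiden resolution 1). A cluster was named "X-like" from at least 3 markers at 3 times or more the median over clusters, each found in at least 5% of its nuclei, and left unnamed where at least 3 lists had 4 or more such markers. Class names were thus rebuilt here.

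Members and gene lists were chosen with earlier results of these data known. All members are named; of each partner list, the genes past the threshold and, for KO against WT, the 2 genes with the smallest p are named. For likeness, the 5 genes with the highest correlation are named. Some genes that this rule selects are not reported here.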

Additional observations from a re-analysis of the deposited data

How the results depend on the processing

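Alternatives were other scalings, filters and tools, the replicate block, only the groups compared, and libraries left out, singly or as the pair KO colon t4 and KO jejunum m1. For KO against WT, 0 of 9 members were called under every alternative run, in colon and in jejunum. The colon median was -0.35 to -0.29 with all libraries and -0.53 to -0.11 with libraries left out; the jejunum median was -0.14 to -0.07 and -0.15 to 0.02. The median of the tissue difference was -0.34 with a replicate block, 0.28 without the pair, and -0.29 to 0.30 over all left-out settings. In WT, the number of members called between segments was 0 with total counts and with the replicate block, 2 by DESeq2 and with only the groups compared, 3 without the pair, and 0 to 1 with 1 library left out. The replicate block took the adjusted p of Sgcb to 0.221, the highest of its alternatives (lowest 2.28e-04). In KO, the number was 2 by DESeq2, and the median was -0.74 with the replicate block and -0.66 to -0.04244 with libraries left out. Total counts moved the median of all genes by 0.109 in that comparison. Same-tag libraries did not vary together (correlations of deviations in WT 0.1002, -0.007967 and 0.06093, in KO -0.1634 and -0.09455, and between genotypes 0.02446 and -0.03064), and not every library correlated best with its own tag, so the tags are not read as pairs. Some signs reversed, and the cause was not tested. For KO against WT in colon, Sgcd was -0.002477 with a minimum of 1 CPM, -0.10 with voom and -0.11 with the replicate block, and Utrn was 0.02564 without the pair; with libraries left out, Sgcd was -0.41 to 0.35, Utrn -0.17 to 0.08569 and Dag1 -0.07489 to 0.25. In jejunum, Sgcd was -0.003482 with the replicate block, and with libraries left out Sgcd was -0.15 to 0.16 and Dag1 -0.14 to 0.02359. For the tissue difference, Sgcd was 0.05666 with total counts, 0.02972 with TMM without mitochondrial and the 20 most abundant genes, 0.02154 with no filter and 0.18 without the pair. Sspn was 0.01958 with total counts, 4.631e-04 with that TMM and 0.28 without the pair, Sgca was -0.23 with voom and -0.91 with the replicate block, and Dag1 was -0.07344 with the block. With libraries left out these differences were -0.52 to 0.62 for Sgca, -0.10 to 0.43 for Sgce, -0.44 to 0.31 for Sgcd and -0.29 to 0.28 for Sspn. Between segments in WT, Dmd was 7.624e-05 with total counts, and Dtna -0.006918 with that TMM, -0.008014 with no filter and -0.008067 without the pair; with libraries left out Dmd was -0.19 to 0.003275, Sgca -0.36 to 0.02652 and Dtna -0.17 to 0.10. Between segments in KO, Sgca was 0.11 with total counts and 0.52 without the pair, Dag1 -0.01221 with voom, -0.009271 with only the groups compared and -0.26 with the replicate block, Utrn -0.01858 with the block, and Sgce 0.0645 without the pair. With libraries left out Sgca was -0.62 to 0.52, Dag1 -0.24 to 0.13, Utrn -0.10 to 0.27 and Sgce -0.41 to 0.0645. Leaving out the pair, and taking single smooth muscle-like clusters, were chosen after seeing the data. In the nuclei, 42 of the members' single values moved beyond their interval under an alternative or within a single cluster. The 49 values that did not move include the region counts of each library within 500 bases of a start, which have no interval. Counts of 52 to 61 UMIs limit Sgca, Sgcb and Sspn.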
